A study of Mus musculus with 6 samples.

Results

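The collagen chain genes are the 44 gene symbols of the deposited count table that consist of Col, a type number, the letter a and a chain number. They were 44 of 33639 gene symbols and were sorted by textbook structure into 11 fibrillar, 6 basement membrane (type IV) and 27 other collagens. The study compared mice lacking Abcg8 in the whole body, which cannot return plant sterols to bile and gut with the Abcg5 and Abcg8 transporter. Per the labels, every mouse was male and had a low sterol diet with 0.005% ezetimibe, a blocker of sterol uptake, up to weaning. Each then ate a low sitosterol, high sitosterol, ergosterol or stigmasterol diet for 12 weeks. RNA was sequenced from the liver of 1 mouse on each of the 4 diets and from the adrenal gland of 1 mouse on low and 1 on high sitosterol. Every group therefore lacked Abcg8, and no wild-type animal is among these 6 libraries. The sources used here give neither age at tissue collection nor sterol doses, nor whether a liver and an adrenal came from the same mouse.

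With 1 library per group there was no replicate check and no test. A value is a single library, and a ratio compares 2 libraries, not 2 diets. Levels are given as scaled CPM, which are read counts relative to library size (CPM) after TMM scaling within a tissue, or as TPM, which also divides by transcript length and so allows chains to be set beside each other. To be called higher or lower, a gene needed a 2-fold difference or more and an exact 95% interval for counting error that excluded equality. Intervals cover counting error only.

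Collagens are proteins of 3 chains wound into a helix, in which glycine recurs at the first place of each amino acid triplet. Fibrillar collagens (types I, III, V and relatives) assemble into the cross-striated fibers of connective tissue and scars. Type IV collagens form the sheet-like network of basement membranes, and the others decorate fibrils, form microfibrils or networks, or sit in the cell membrane. In liver, fibrillar collagens are known to come mainly from hepatic stellate cells and portal fibroblasts, and their build-up is fibrosis.

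The helix is visible in the gene structure. In the RefSeq and GENCODE mouse annotation on GRCm38, exons of exactly 54 bases made up 42.9% to 56.9% of the inner coding exons of the 11 fibrillar genes and 2.22% to 5.88% of those of the 6 type IV genes. Of 236 such exons in the 8 fibrillar genes read, 233 held a glycine codon at the start of each set of 3 codons. Of 10 in the 5 type IV genes read, 10 did. Of 102 in the other collagens read, 88 did, with Col17a1 at 0 of 3 and Col18a1 at 1 of 3. In the 24 other collagens with inner coding exons, exons of 54 bases made up 0% to 46.7%. A stretch from each of 4 chains is shown here, namely 2 chains of the interstitial fibers, a type V chain with another pattern across the livers and a type IV chain, 5′ to 3′ on the coding strand, with the glycine codons in capitals.
Col1a2, exon 27, chr6:4524117-4524170, plus strand: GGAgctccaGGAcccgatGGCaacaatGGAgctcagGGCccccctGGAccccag
Col3a1, exon 26, chr1:45334761-45334814, plus strand: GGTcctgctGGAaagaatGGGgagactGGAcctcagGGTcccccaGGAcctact
Col5a3, exon 38, chr9:20785573-20785626, minus strand: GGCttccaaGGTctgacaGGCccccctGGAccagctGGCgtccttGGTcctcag
Col4a1, exon 17, chr8:11238998-11239051, minus strand: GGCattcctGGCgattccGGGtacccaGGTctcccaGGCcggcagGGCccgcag

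Promoters were matched for 35 of the 44 genes (38 promoters) in the RefSeq table for GRCm38.p6. Col1a1, Col2a1, Col4a3, Col5a2, Col9a3, Col12a1, Col14a1, Col22a1 and Col26a1 had no entry. In the 250 bases before the start, on either strand, GGGCGG was found in 57.9% of the collagen promoters and in 32.7% of all 32851 promoters. TATAAA was found in 13.2% against 12.4%, and CCAAT in 34.2% against 33.8%. Shown are the promoters of Col3a1, with one of the highest levels in the stigmasterol liver, and of Col8a1, below 1 CPM in the other livers. Also shown is that of Col5a3, a fibrillar chain that did not follow them. Motif letters of either strand are in capitals.
Col3a1, chr1:45311288-45311537, plus strand: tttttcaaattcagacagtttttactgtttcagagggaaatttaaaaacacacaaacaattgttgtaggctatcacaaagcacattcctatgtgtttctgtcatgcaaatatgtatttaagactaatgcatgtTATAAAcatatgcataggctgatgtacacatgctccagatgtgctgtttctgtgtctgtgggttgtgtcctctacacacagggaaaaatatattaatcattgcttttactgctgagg
Col8a1, chr16:57754738-57754987, minus strand: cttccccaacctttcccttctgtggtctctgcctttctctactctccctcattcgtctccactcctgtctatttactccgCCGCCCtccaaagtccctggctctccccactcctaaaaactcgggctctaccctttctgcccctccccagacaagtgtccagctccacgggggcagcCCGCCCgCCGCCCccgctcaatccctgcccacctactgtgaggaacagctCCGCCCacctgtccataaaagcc
Col5a3, chr9:20815068-20815317, minus strand: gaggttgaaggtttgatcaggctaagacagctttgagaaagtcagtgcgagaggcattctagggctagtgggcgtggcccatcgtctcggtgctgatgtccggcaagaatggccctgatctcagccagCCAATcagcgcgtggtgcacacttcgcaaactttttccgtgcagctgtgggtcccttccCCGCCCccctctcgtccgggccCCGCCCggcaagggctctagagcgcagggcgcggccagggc
The Col3a1 window held 1 TATAAA and no GGGCGG, the Col8a1 window 4 GGGCGG, and the Col5a3 window 2 GGGCGG and 1 CCAAT. These matches describe the letters only. GGGCGG was in 12 of the 19 promoters of collagens called higher in the stigmasterol liver against low sitosterol and in 4 of the 6 of those analysed and not called. Of the 13 promoters of collagens below the liver filter, 6 held it.

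The 6 libraries held between 41546507 and 50573364 estimated counts each. At this depth a gene with no count could lie at up to 0.0593 CPM in the deepest library and 0.0722 CPM in the shallowest. TMM factors were 0.83 to 0.95 in the first 3 livers and 1.35 in the stigmasterol liver. Abcg8, the targeted gene, had 51 counts in the low sitosterol liver, 394 to 788 in the other livers and 2 and 3 in the adrenals; which part of it was deleted is not given in the sources used here, so these counts check no label. The Y-linked gene Eif2s3y had 1293 to 1680 counts in the 4 livers and 0 and 2 in the 2 adrenal libraries, although those are labelled male. In the low sitosterol liver, 7 adrenal cortex genes stood at a median of 0.155% of their level in the low sitosterol adrenal, against 0.00537% to 0.0183% in the other livers. That share of the adrenal level came to at most 12.0% of the low sitosterol liver's own level for any of the 29 collagens analysed in liver (Col8a2), with a median of 2.03%.

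Of the 44 collagen genes, 29 reached 1 CPM in at least 1 liver library and were analysed there: 8 fibrillar, 6 type IV and 15 other. The remaining 15 were below that level in every liver: the fibrillar Col2a1, Col11a1 and Col24a1, and Col6a4, Col7a1, Col9a1, Col9a2, Col10a1, Col17a1, Col19a1, Col20a1, Col22a1, Col23a1, Col25a1 and Col26a1. Of the 29, 10 passed in the stigmasterol liver alone (Col4a3, Col4a4, Col4a5, Col4a6, Col6a5, Col6a6, Col8a1, Col8a2, Col9a3 and Col28a1). Passing in that way favours genes that are higher in the stigmasterol liver. In the adrenal libraries 36 were analysed, and Col2a1, Col9a1, Col9a3, Col10a1, Col17a1, Col19a1, Col24a1 and Col26a1 were below the filter.

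Col18a1, the chain of collagen XVIII, whose end fragment is endostatin, was the collagen with the highest TPM in all 4 livers. It stood at 154 TPM in low sitosterol, 203 in high sitosterol, 273 in ergosterol and 214 in stigmasterol. It gave 76.4%, 74.0%, 81.9% and 27.9% of all collagen TPM in the same order. In the first 3 livers it thus outweighed all other collagens together, and in the stigmasterol liver it did not. Its gene overlaps Slc19a1 in the annotation and the library kit did not keep the strand, so its values carry that uncertainty.

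Without Col18a1, the collagen genes summed to 47.4 TPM in low sitosterol, 71.3 in high sitosterol, 60.2 in ergosterol and 552 in stigmasterol liver. Fibrillar collagens summed to 16.8, 27.1, 23.3 and 285 TPM, and type IV collagens to 10.3, 15.8, 11.3 and 102 TPM. Fibrillar chains were 8.36%, 9.91%, 6.997% and 37.3% of all collagen TPM in these livers. Only in the stigmasterol library of the 4 livers did fibrillar collagens exceed Col18a1 in TPM. Fewer cells of a type and less RNA per cell cannot be told apart in such bulk samples.

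**Figure D1:**
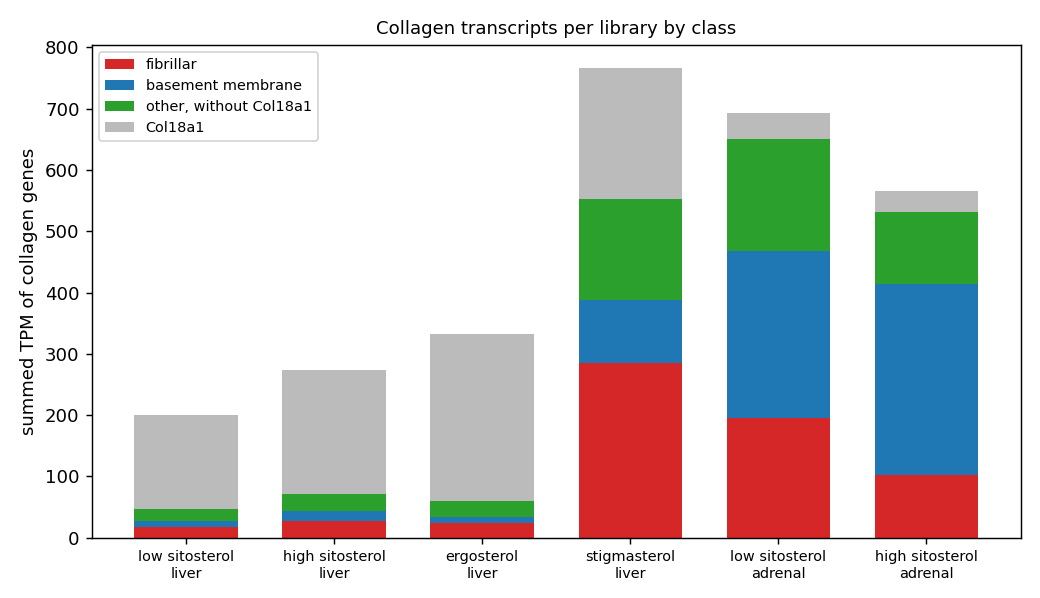
Summed TPM of collagen genes (y axis) in each of the 6 libraries (x axis), stacked by class with Col18a1 apart. Col18a1 fills most of the bar in the first 3 livers, while fibrillar chains reach 285 TPM in the stigmasterol liver and type IV chains 272 and 311 TPM in the adrenals.

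The stigmasterol liver had higher levels of most collagens than the low sitosterol liver. All 3 chains of the interstitial fibers, Col1a1, Col1a2 and Col3a1, were 11.8-fold to 17.7-fold higher in scaled CPM, and Col4a1, Col4a2, Col6a1, Col6a2 and Col6a3, the type IV and VI chains that did not need the stigmasterol liver to pass the filter, were called higher. Of the 29 analysed genes, 24 were called higher (5 of 8 fibrillar, 6 of 6 type IV, 13 of 15 other) and none lower, beside 21.7% higher and 7.79% lower over all 13378 genes. The collagen median log2 ratio was 2.72, beside 0.08 over all genes. Among the 18 collagens that already stood at 1 CPM in the low sitosterol liver, 13 were called higher and none lower, beside 12.4% and 8.73% of the 11395 genes at that level. With library totals in place of TMM the median was 0.77 over all genes and 3.41 over the collagens. Of all genes called, 92.9% were then higher, against 73.6% with TMM, and the number of collagens called higher was 24 with either.

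Of the fibrillar chains, Col1a1, the main chain of type I collagen, stood at 10.1 scaled CPM in low sitosterol, 14.9 in high sitosterol, 7.21 in ergosterol and 180 in stigmasterol liver. Col1a2, its partner chain, stood at 13.3, 21.3, 11.4 and 158 scaled CPM, and Col3a1, the single chain of type III collagen, at 23.4, 34.8, 23.8 and 342. For each of the 3 genes the stigmasterol liver stood far above the other livers, among which high sitosterol was the highest. Against low sitosterol, the log2 ratio was 4.15 (95% interval 4.01 to 4.29) for Col1a1, 3.56 (3.44 to 3.69) for Col1a2 and 3.87 (3.78 to 3.97) for Col3a1.

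Type V collagen, which sits in the core of type I fibrils and limits their width, was split. Col5a2 stood at 1.54, 3.22, 1.73 and 29.8 scaled CPM in low sitosterol, high sitosterol, ergosterol and stigmasterol liver, and Col5a1 at 6.11, 7.21, 6.71 and 26.9. Their log2 ratios in stigmasterol against low sitosterol were 4.27 (3.91 to 4.66) and 2.14 (1.95 to 2.34). Col5a3, a further type V chain, stood instead at 21.5, 31.2, 44.6 and 24.0 scaled CPM, highest in ergosterol. Its log2 ratio in stigmasterol was 0.16 (0.04 to 0.28), below the 2-fold rule. It was 0.85 with library totals and 1.06 on log2(TPM + 0.1), which passes 2-fold.

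Col27a1, a minor fibrillar chain known from cartilage, stood at 16.1, 11.4, 12.9 and 9.62 scaled CPM, lowest in stigmasterol. Its log2 ratio there was -0.75 (-0.91 to -0.59) with TMM but -0.05 with library totals and 0.09 in TPM. Col11a2 lay between 0.561 and 1.29 scaled CPM in every liver. With TMM the fibrillar class thus held 5 genes called higher in the stigmasterol liver and 3 that were not, and on log2(TPM + 0.1) Col5a3 joined the 5.

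**Figure D2:**
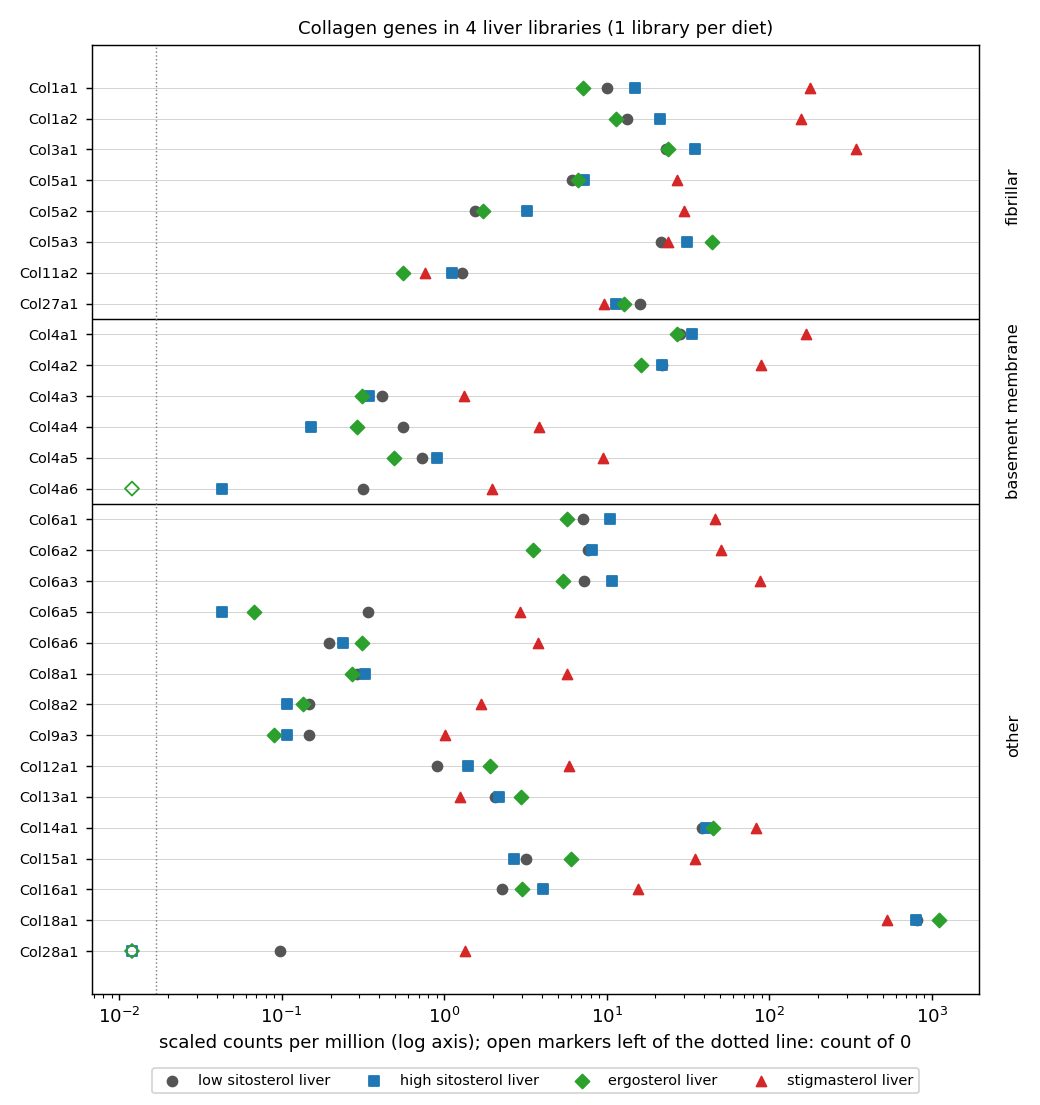
Scaled CPM (x axis, log scale) of the 29 collagen genes analysed in liver (y axis, by class), 1 marker per library. The stigmasterol triangles stand to the right of the other 3 livers except for Col5a3, Col11a2, Col27a1, Col13a1 and Col18a1.

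The type IV genes lie head to head in the pairs Col4a1 and Col4a2, Col4a3 and Col4a4, and Col4a5 and Col4a6. Col4a1 and Col4a2 make the network found in nearly every basement membrane. The starts of Col4a1 and Col4a2 on chromosome 8 lie 21 bases apart and the 2 genes overlap, so reads at that end cannot be assigned with certainty. Col4a1 stood at 28.5 scaled CPM in low sitosterol, 33.4 in high sitosterol, 27.0 in ergosterol and 170 in stigmasterol liver, and Col4a2 at 21.8, 22.1, 16.2 and 89.1. Both were several times higher in stigmasterol, with log2 ratios against low sitosterol of 2.58 (2.49 to 2.67) and 2.03 (1.93 to 2.13).

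The other 4 type IV chains, found in kidney and other specialised basement membranes, were sparse outside the stigmasterol liver. Col4a5 stood at 0.733, 0.907, 0.494 and 9.46 scaled CPM, and Col4a4 at 0.562, 0.151, 0.292 and 3.81. Col4a3 and Col4a6 reached 1.32 and 1.98 scaled CPM in stigmasterol. All 4 were at most 0.907 in the other livers, and their log2 ratios against low sitosterol ran from 1.65 for Col4a3 to 3.67 for Col4a5. On log2(TPM + 0.1) the Col4a3 ratio was 0.53, below 2-fold. These 4 genes passed the filter in the stigmasterol liver alone.

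Among the other collagens, type VI forms beaded microfibrils around cells from Col6a1, Col6a2 and a further chain such as Col6a3. Col6a1 stood at 7.21, 10.5, 5.75 and 46.6 scaled CPM, Col6a2 at 7.72, 8.16, 3.52 and 50.8, and Col6a3 at 7.28, 10.7, 5.39 and 87.6, in the order low sitosterol, high sitosterol, ergosterol and stigmasterol. The log2 ratios in stigmasterol against low sitosterol were 2.69, 2.72 and 3.59. The alternative chains Col6a5 and Col6a6 reached 2.92 and 3.78 scaled CPM in stigmasterol and at most 0.342 elsewhere in liver.

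Col15a1, a basement-membrane-associated relative of Col18a1, stood at 3.18, 2.70, 6.06 and 35.2 scaled CPM, and Col16a1, a fibril-associated collagen, at 2.27, 4.08, 3.01 and 15.6. Col14a1, which binds fibril surfaces, stood at 38.5, 41.1, 45.0 and 82.7 scaled CPM. It was high in all 4 livers and just past the 2-fold rule in stigmasterol, with a log2 ratio of 1.10 (1.02 to 1.19). Col8a1, a short-chain network collagen of vessel walls, stood at 0.293, 0.324, 0.269 and 5.68, a log2 ratio of 4.23 (3.45 to 5.24) on 12 counts in low sitosterol.

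Col18a1 and the transmembrane Col13a1 were the 2 other-class collagens not called higher in stigmasterol. Col18a1 stood at 812, 807, 1112 and 535 scaled CPM and Col13a1 at 2.05, 2.18, 2.96 and 1.26. Against low sitosterol, the Col18a1 log2 ratio was -0.60 (-0.62 to -0.58) with TMM, 0.09 with library totals and 0.48 in TPM, and the Col13a1 ratio -0.70 with TMM, -0.01 with totals and 0.34 in TPM. Whether either was lower or higher thus turned on the scaling. The fibrillar Col27a1 and Col11a2 had ratios of about the same size, at -0.75 and -0.76 with TMM.

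All 3 comparisons share the stigmasterol liver, and those with high sitosterol and ergosterol do not use the low sitosterol liver. Against high sitosterol, 24 of 29 collagens were higher and none lower in the stigmasterol liver, beside 16.5% and 5.59% of all genes. Of the 19 collagens at 1 CPM in the high sitosterol liver itself, 14 were higher and none lower, beside 9.31% and 6.02% of genes at that level. Against ergosterol, 23 were higher and 2 lower (Col13a1 and Col18a1), beside 19.4% and 7.09%. With library totals these were 24 and 0. Of the 18 at 1 CPM in the ergosterol liver itself, 13 were higher and 2 lower, beside 10.2% and 7.83%. The counts out of 29 include the 10 genes that passed the filter in the stigmasterol liver alone. Of all genes called, the share that was higher went from 74.7% with TMM to 91.8% with totals against high sitosterol, and from 73.2% to 90.4% against ergosterol. Col1a1 was 12.1-fold higher than in high sitosterol and 24.9-fold higher than in ergosterol. Col4a6 was at least 29.4-fold higher than in ergosterol and Col28a1 at least 20.8-fold higher than in high sitosterol, taking the 3 counts that a count of 0 allows.

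The high and low sitosterol livers were closer to each other, with 1 collagen of 29 called higher and 3 lower, beside 8.67% and 4.3% of all genes. Of all genes called, 66.9% were higher with TMM and 78.4% with library totals. Col5a2 was the 1 called higher, at a log2 ratio of 1.06 (0.63 to 1.51). Col4a4, Col4a6 and Col6a5 were called lower, on 23, 13 and 14 counts in low sitosterol against 7, 2 and 2 in high sitosterol. Their TPM in low sitosterol was 0.0474, 0.0411 and 0.0314, so TPM with a pseudocount of 1 could not reach 2-fold. The main fibrillar chains had ratios below 2-fold whose intervals excluded equality. These were 0.55 (0.38 to 0.73) for Col1a1, 0.68 (0.52 to 0.83) for Col1a2 and 0.57 (0.46 to 0.69) for Col3a1.

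Between the ergosterol and low sitosterol livers 2 collagens of 29 were called higher and 4 lower, beside 6.05% and 5.81% of all genes. Of all genes called, 51.0% were higher with TMM and 65.1% with library totals. The comparison shares the low sitosterol liver with those above. Col5a3 was higher at 1.05 (0.94 to 1.17) and Col12a1, a fibril-associated collagen, at 1.07 (0.50 to 1.68). Col6a2 was lower at -1.13 (-1.42 to -0.85), Col11a2 at -1.19 (-1.95 to -0.49), Col6a5 at -2.16 on 14 against 3 counts, and Col4a6 was at least 4.72-fold lower. The ergosterol and high sitosterol livers differed by 1 collagen called higher (Col15a1, 1.16) and 2 lower (Col1a1, -1.04, and Col6a2, -1.21), beside 6.18% and 8.96% of all genes. Of all genes called, 40.8% were higher with TMM and 52.4% in TPM with a pseudocount of 0.1.

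Chains of 1 molecule did not keep 1 ratio across the libraries. Type I collagen is built mostly from Col1a1 and Col1a2 together. The TPM of Col1a1 was 0.681, 0.618 and 0.570 times that of Col1a2 in the low sitosterol, high sitosterol and ergosterol livers. In the stigmasterol liver the ratio was 1.02, and in the adrenals 0.435 and 0.354. Col6a1 to Col6a2 stood between 0.902 and 1.64 in the 4 livers but at 5.70 in the adrenal on low and 3.20 in that on high sitosterol. Col6a3 to Col6a1 stood between 0.799 and 2.28 in liver and at 0.0773 and 0.0822 in adrenal. In counts, not divided by length, that ratio was 1.01, 1.02 and 0.938 in the low sitosterol, high sitosterol and ergosterol livers. It was 1.88 in the stigmasterol liver. Col4a1 to Col4a2 varied less, between 2.40 and 3.35 in TPM in liver and at 2.22 and 2.01 in adrenal.

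**Figure D3:**
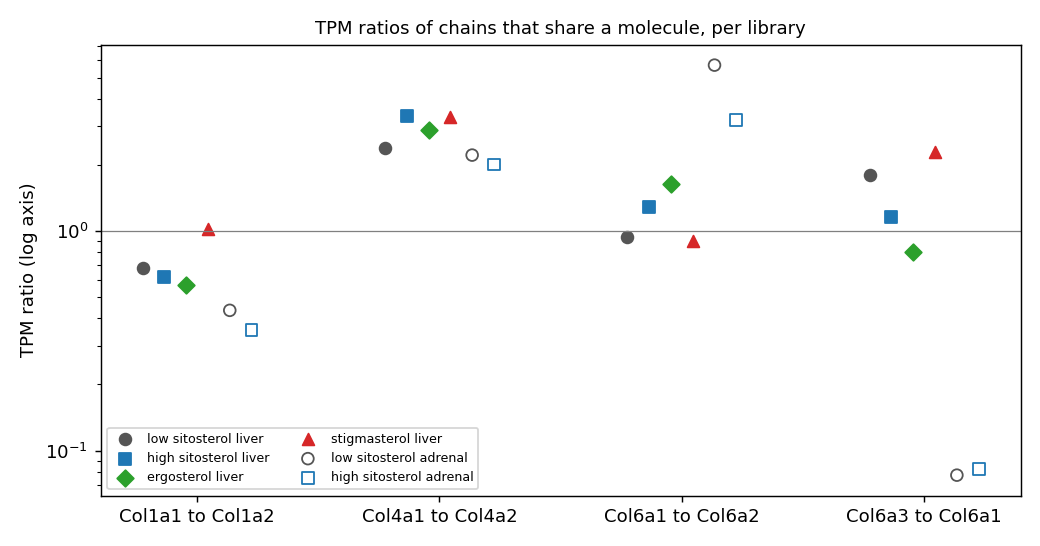
TPM of one collagen chain divided by that of a chain of the same molecule (y axis, log scale), for 4 chain pairs (x axis) in each of the 6 libraries. Col1a1 to Col1a2 is highest in the stigmasterol liver at 1.02, and both type VI ratios set the adrenals (open markers) apart from the livers.

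Other genes of the collagen pathway stood apart unevenly in the stigmasterol liver. The list counts cover genes at 1 CPM in any liver, and passing in 1 liver alone favours genes that are higher there. No recount at 1 CPM in the low sitosterol liver was made for these lists. Of 17 analysed genes for folding and secretion (of 19 listed), 7 were higher and 1 lower than in low sitosterol, with a median log2 ratio of 0.11, near the 0.08 of all genes. Fkbp10, a chaperone of collagen, stood at 2.77 and Serpinh1, the collagen chaperone HSP47, at 1.06, but the proline hydroxylase P4ha1 at -0.58. Of 10 analysed genes that remove propeptides or crosslink chains (of 13 listed), 8 were higher and none lower, with Loxl1 at 3.92, Loxl4 at 3.30 and Lox at 3.12, all copper enzymes that crosslink collagen.

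The counts of the further lists stand beside 21.7% of all genes higher and 7.79% lower, with the same limit of the filter. Of 15 laminins and basement membrane partners, 13 were higher and 2 lower, with Lamc3 at 3.68 and Lama3 at -2.01. Of 12 small leucine-rich and fibril-binding proteins 9 were higher and none lower (Thbs2 and Dpt 3.99, Lum 3.84). Of 17 genes of TGF-beta and PDGF signalling, which is known to induce collagen, 14 were higher and none lower (Pdgfra 3.26, Tgfb2 3.14, Pdgfrb 2.97). Collagen receptors had 5 of 9 higher and none lower (of 11 listed), led by Mrc2 at 4.10 and Ddr1 at 3.93.

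Degrading proteases and their inhibitors were also higher, 7 of 8 analysed (of 10 listed) and none lower, with a median of 3.58. Mmp13, an interstitial collagenase, stood at 0.0489 scaled CPM in low sitosterol, on 2 counts, and 3.83 in stigmasterol. Ctsk, a collagen-cleaving cathepsin, stood at 5.61 on the log2 scale and Timp1, an inhibitor of these proteases, at 4.85.

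In the other 2 comparisons with the low sitosterol liver, the lists differed in how many genes were called. In high sitosterol, where 8.67% of all genes were higher and 4.3% lower, folding and secretion had 1 of 17 higher and none lower (P4ha1, 1.44). TGF-beta and PDGF signalling had 4 of 17 higher and none lower, among them Pdgfa at 1.10, receptors 2 of 9 higher and 1 lower, and the degrading group 3 of 8 higher and none lower. In ergosterol, where 6.05% of all genes were higher and 5.81% lower, folding and secretion had 3 of 17 lower and none higher, among them Serpinh1 at -1.63 and Ppib at -1.01, and propeptide removal and crosslinking 3 of 10 lower and 1 higher. Serpinh1 thus stood at 36.8 scaled CPM in low sitosterol, 53.9 in high sitosterol, 11.9 in ergosterol and 76.7 in stigmasterol liver, lowest in ergosterol.

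Markers of cells that could carry collagen RNA differed between the same libraries. Their counts include markers below 1 CPM in the low sitosterol liver, which favours higher calls, and no recount was made. The 9 portal fibroblast markers summed to 19.8, 24.3, 13.7 and 169 scaled CPM in low sitosterol, high sitosterol, ergosterol and stigmasterol liver, and 6 of 7 analysed were higher and 1 (Msln) lower in stigmasterol than in low sitosterol. The 8 cholangiocyte markers summed to 65.0, 70.3, 39.4 and 912, with 8 of 8 higher. A single marker gave most of these sums, 56.1 in low sitosterol and 825 (Spp1) in stigmasterol. Gli1 was at 0 in the high sitosterol liver.

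The 10 stellate cell markers summed to 251, 260, 298 and 259 scaled CPM, of which Ecm1 made up 141 in low sitosterol and 66.0 in stigmasterol, and 5 of 10 were higher and 1 (Ecm1) lower. Smooth muscle and myofibroblast markers summed to 34.2, 11.0, 12.6 and 36.9, with 0 of 4 analysed called in stigmasterol against low sitosterol and Actg2 at 0 in the high sitosterol liver. Acta2, the marker of contractile myofibroblasts, stood at 10.4 in low sitosterol, 1.47 in high sitosterol, 2.99 in ergosterol and 9.99 in stigmasterol. Against high sitosterol, 4 of these 4 markers were higher in stigmasterol, and against ergosterol 3 of 4 were higher and none lower. Macrophage markers summed to 130, 387, 229 and 174, and 6 of 6 were higher in high than in low sitosterol. Hepatocyte markers summed to 111206, 145182, 105006 and 58672. The part of these cell types in the collagen values was not tested.

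**Figure D4:**
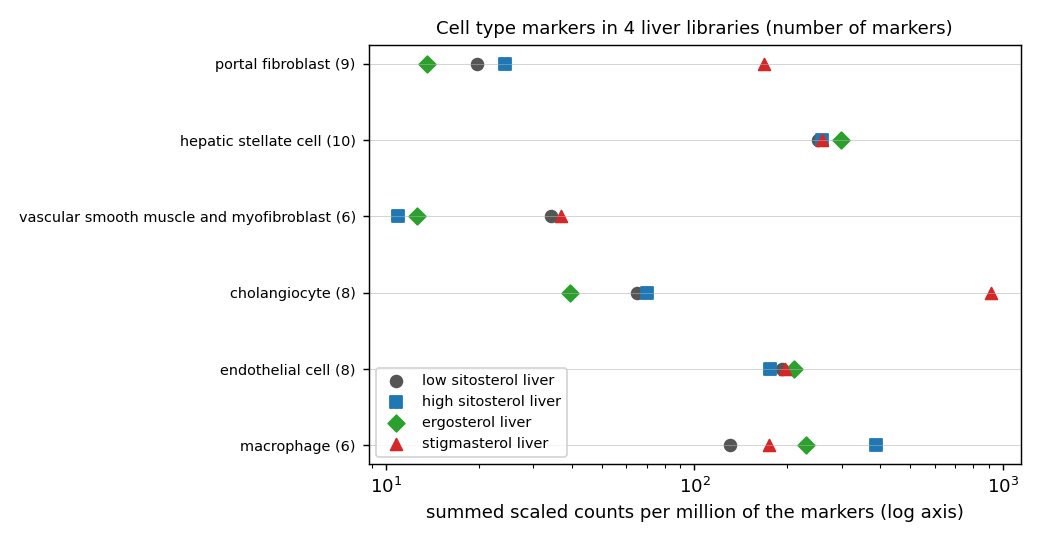
Summed scaled CPM (x axis, log scale) of the markers of 6 cell types (y axis, number of markers in brackets) in the 4 livers. Portal fibroblast and cholangiocyte sums are highest in the stigmasterol liver (169 and 912, of which Spp1 gives 825), while stellate and endothelial sums lie close together.

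In the adrenal, type IV chains had the highest summed TPM of the 3 classes. Col4a1 had the highest TPM of all collagens in both libraries, 182 in low and 204 in high sitosterol, and type IV chains made up 39.3% and 55.0% of collagen TPM. Fibrillar chains gave 28.1% and 18.1%. Summed over all collagens, the adrenals held 693 and 566 TPM.

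Of 36 collagens analysed in adrenal, 2 were called higher and 4 lower in high than in low sitosterol, beside 3.83% and 2.31% of all 14224 genes. The median was -0.40 over the collagens and 0.00 over all genes. The 4 called lower were Col5a3, Col6a1, Col6a6 and Col5a1, and the 2 called higher Col7a1 and Col6a4. Col4a1 and Col4a2 were slightly higher, below the 2-fold rule.

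Col5a3 stood at 299.9 scaled CPM in the low sitosterol adrenal and 102 in that on high sitosterol, a log2 ratio of -1.56 (-1.61 to -1.51). Col5a1 stood at 80.7 and 37.2 (-1.12, -1.20 to -1.03) and Col6a1 at 245 and 99.5 (-1.30, -1.35 to -1.25). These 3 chains were abundant in both libraries. Col6a6 stood at 1.60 and 0.600 scaled CPM (-1.40, -2.10 to -0.76).

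The main interstitial chains were lower by less than 2-fold. Col1a1 stood at 71.5 and 40.3 scaled CPM in low and high sitosterol, Col1a2 at 147 and 98.7, and Col3a1 at 91.9 and 53.9. Col6a2 stood at 42.3 and 30.6, Col6a3 at 30.1 and 17.8, Col12a1 at 14.1 and 8.85, and Col14a1 at 24.4 and 16.0. Each of these 7 had an interval that excluded equality, with log2 ratios from -0.47 for Col6a2 to -0.83 for Col1a1.

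Within type IV the pairs parted. Col4a1 stood at 619 and 759 scaled CPM (0.29, 0.27 to 0.32) and Col4a2 at 349 and 424 (0.28, 0.25 to 0.31), higher in high sitosterol under all 3 scalings and in TPM. Col4a3 stood at 8.69 and 4.70, Col4a4 at 11.8 and 6.37, Col4a5 at 17.9 and 11.5 and Col4a6 at 2.11 and 1.20. In scaled CPM these 4 were lower, at -0.64 to -0.89, each with an interval that excluded equality. In TPM, Col4a4, Col4a5 and Col4a6 were lower too, but Col4a3 stood at 1.55 and 1.53. The 2-fold rule was met by none of the 6.

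Col7a1, the chain of anchoring fibrils below epithelia, stood at 6.68 and 15.7 scaled CPM (1.23, 1.04 to 1.44) and Col6a4 at 0.799 and 1.72 (1.09, 0.51 to 1.73). Col27a1 stood at 17.7 and 28.1 and Col13a1 at 21.6 and 25.2. Col15a1 stood at 48.5 and 43.3, Col16a1 at 28.1 and 22.2, Col18a1 at 127 and 104, Col5a2 at 15.7 and 11.4 and Col23a1 at 12.8 and 11.5, all lower in high sitosterol by less than 2-fold. In TPM, Col16a1 was not lower, at 9.01 and 9.06.

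**Figure D5:**
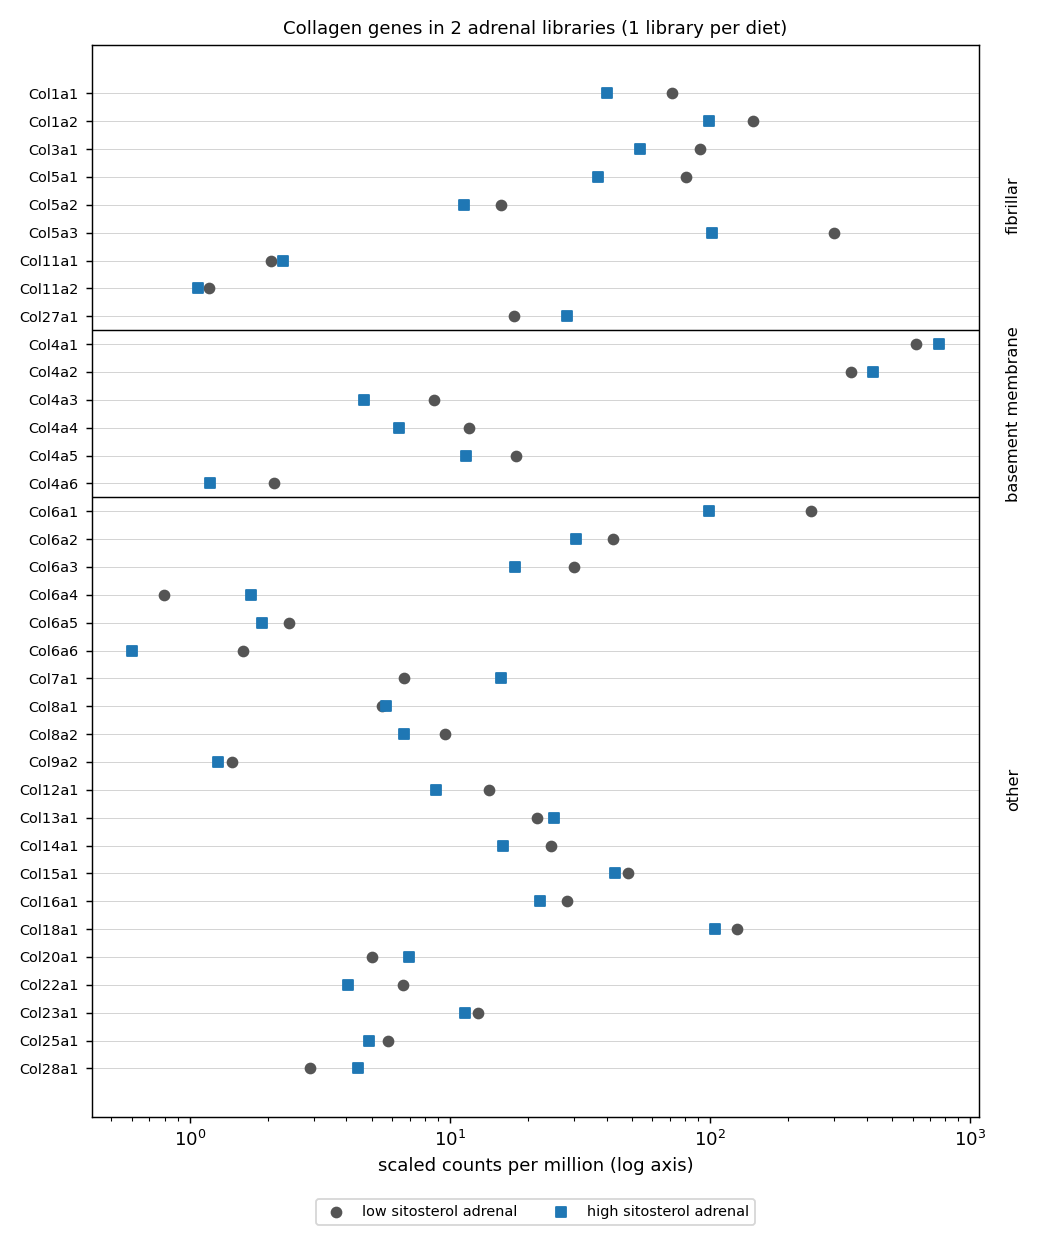
Scaled CPM (x axis, log scale) of the 36 collagen genes analysed in adrenal (y axis, by class), 1 marker per library. High sitosterol squares lie left of low sitosterol for most genes, with Col5a3 at 102 against 299.9, and right of it for Col4a1 and Col4a2.

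Beside these values, the 5 adipocyte markers summed to 2950 scaled CPM on low and 1309 on high sitosterol, and 4 of 5 were called lower, with Lep at 3.32 and 2.94. Portal fibroblast markers, which also mark other fibroblasts, summed to 116 and 89.8, with 2 of 9 lower. Adrenal capsule markers summed to 135 and 116, and adrenal cortex markers to 56573.5 and 56843.4. The following sums were higher on high sitosterol. Smooth muscle and myofibroblast markers summed to 127 and 255, with 2 of 4 analysed higher and 1 lower, stellate markers to 475 and 659, with 0 of 8 called, and macrophage markers to 118 and 204, with 1 of 5 higher and 1 lower. The highest single marker on low and high sitosterol was at 352 and 507 for stellate cells and 76.0 and 157 for smooth muscle. For macrophages it was at 61.3 and 116. Clec4f was at 0 in the low sitosterol adrenal. The part of these cell types in the collagen values was not tested. Of the pathway lists, folding genes had 0 of 18 called with a median of -0.11, laminins and partners 0 of 14 with -0.34, and fibril-binding proteins 0 of 12 higher and 1 lower (Postn, -1.01) with -0.62. Serpinh1 stood at 225 and 133 scaled CPM in the low and high sitosterol libraries. The degrading group had 2 of 9 higher and none lower (Timp1, 1.46, and Mmp13, 1.42).

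Between tissues, scaled over all 6 libraries, 29 of 37 collagens were lower and 4 higher in the low sitosterol liver than in the low sitosterol adrenal, beside 34.9% and 22.4% of 15125 genes. In high sitosterol 24 were lower and 3 higher, beside 32.0% and 22.6%. Tissue cannot be told apart here from the Y-linked genes, which had counts in the livers and almost none in the adrenals. Col18a1 (3.90 and 4.23 on the log2 scale) and Col14a1 (1.88 and 2.63) were called higher in liver in both diets; with library totals the low sitosterol ratio of Col14a1 was 0.40 and not called. Col11a2 (1.34 and 1.32) and, in low sitosterol only, Col27a1 (1.09) were also called higher in liver, but with library totals Col11a2 came to -0.13 and -0.01 and Col27a1 to -0.39. All 6 type IV chains were lower in liver in both diets, Col4a1 by -3.22 and -3.23. With library totals the median of all genes lay at -1.78 in low and -1.57 in high sitosterol, against -0.31 and -0.23 with TMM, and 12.5% and 13.8% of all calls were higher against 39.0% and 41.4%.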

How the data were processed

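RNA of 4 livers and 2 adrenals was prepared with TruSeq v2 kits, which do not mark strand, per the labels' protocols. The authors deposited estimated counts and TPM values per gene symbol; kallisto 0.43.1, HISAT2 2.0.5, Trimmomatic 0.33 and the build mm10 are listed, with no role given, per the submitters' processing notes. Estimated counts were rounded to whole numbers. CPM was scaled by TMM over all genes (edgeR 4.0.16, R 4.3.3), within a tissue, or over all 6 libraries for liver against adrenal. Genes that reached 1 CPM in any library of the tissue were analysed. Log2 ratios carry a prior count of 0.5 and exact (Clopper-Pearson) 95% intervals from scipy 1.17.1, which cover counting error only. With 1 library per group no test was made, and the ratio code was tested on simulated data. Alternatives were library totals, DESeq2 1.42.0 size factors, other filters, a prior count of 2, log2(TPM + 0.1) and log2(TPM + 1). Every collagen gene could be named; values per library are given mainly for those at 10 scaled CPM or more or called higher or lower, and genes of other lists by size of ratio. Members and lists were chosen with earlier results of these data known. Sequences are from RefSeq (promoters, GRCm38.p6) and GENCODE transcripts (exons, GRCm38); protein sequences were not used here. Figures were drawn with matplotlib 3.10.9. Values of some genes of the lists are not reported here.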

Additional observations from a re-analysis of the deposited data

Results flagged for a closer look

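For 11 of the 28 collagens analysed in both tissues, the ratio of high to low sitosterol went one way in liver and the other way in adrenal, with both counting intervals excluding equality; 3 went the same way by that rule. Of all 12477 genes analysed in both tissues, 17.9% went opposite ways and 27.8% the same way, against 39.3% and 10.7% of the collagens. The difference between the tissues was not tested, each ratio compares 2 libraries, and whether the tissues came from the same mice is not given in the sources used here. Of the 11, 10 were higher in liver and lower in adrenal, which was 35.7% of the 28 collagens beside 7.71% of all genes analysed in both tissues. Col14a1 is among the 10 by a narrow margin, as its liver interval started at 6.7e-05.

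Among fibrillar chains the log2 ratio was 0.55 in liver and -0.83 in adrenal for Col1a1, 0.68 and -0.57 for Col1a2, and 0.57 and -0.77 for Col3a1. It was 1.06 and -0.46 for Col5a2 and 0.54 and -1.56 for Col5a3. Of the type VI chains, Col6a1 stood at 0.54 and -1.30 and Col6a3 at 0.56 and -0.76. The fibril-associated Col12a1 stood at 0.63 and -0.67, Col14a1 at 0.10 and -0.61, and Col16a1 at 0.84 and -0.34. In TPM, Col16a1 was not lower in the adrenal, at 9.01 on low and 9.06 on high sitosterol. Col27a1 alone of the 11 went the other way, at -0.50 in liver and 0.67 in adrenal.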

How the results depend on the processing

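With 1 library per group no library could be left out, and depth limits the chains near the floor of 3 counts. No paired analysis was possible because each group holds 1 library. Of 1916 alternative collagen ratios, 1784 kept their status under the 2-fold rule, 77 no longer passed it and 48 newly did. A further 7 changed sign while called in the main or the alternative setting, and were counted as reversed. Sign changes with no call in either setting, such as Col18a1 in stigmasterol against low sitosterol, are among the 1784. Of 126 counts, 97 stayed within 1.5 times. The cause was not tested where they did not.

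With library totals, collagens called higher were 2 in high against low sitosterol liver and 1 in low sitosterol liver against adrenal; those lower were 4 in ergosterol against high sitosterol and 0 in stigmasterol against ergosterol. Without a filter, high against low sitosterol liver had 4 higher and 6 lower, and stigmasterol had 3 lower against low sitosterol, 1 against high sitosterol and 4 against ergosterol. With a filter at 5 CPM, those lower were 1 in high against low sitosterol liver, 1 in ergosterol against low sitosterol and 1 in stigmasterol against ergosterol, and 1 was higher in high against low sitosterol adrenal.

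On log2(TPM + 0.1), high against low sitosterol liver had 2 higher and 0 lower, ergosterol against low sitosterol 1 lower, ergosterol against high sitosterol 0 higher and 4 lower, and stigmasterol against ergosterol 0 lower. On log2(TPM + 1) these were 0 lower, then 1 higher and 0 lower, then 0 higher and 0 lower, then 0 lower. A chain whose TPM is below the pseudocount in both libraries cannot reach 2-fold on these scales. On either TPM scale 1 was higher in high against low sitosterol adrenal and 1 in low sitosterol liver against adrenal. In stigmasterol against low sitosterol, 24 were higher with totals, DESeq2 size factors, a prior count of 2 and log2(TPM + 0.1), where Col5a3 (1.06) was counted and Col4a3 (0.53) was not, 18 of 21 with the 5 CPM filter and 17 on log2(TPM + 1).

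Reversed ratios of liver against adrenal were Col11a2 in low sitosterol (-0.13 with totals, -1.65 on log2(TPM + 0.1), -0.62 on log2(TPM + 1)) and in high sitosterol (-0.013 with totals), and Col27a1 in low sitosterol (-0.39, -0.53 and -0.43). In CPM, not divided by length, fibrillar shares of collagen were 9.09%, 11.7%, 8.13% and 40.0% in low sitosterol, high sitosterol, ergosterol and stigmasterol liver and 30.6% and 18.6% in low and high sitosterol adrenal. Type IV shares were 5.31% in high sitosterol and 14.3% in stigmasterol liver, and 42.4% and 59.9% in adrenal. Other collagens were 85.8%, 83.0%, 88.6% and 45.7% in liver and 27.0% and 21.5% in adrenal.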
